A study of Mus musculus with 2 samples.

Results

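Vascular endothelial growth factors and angiopoietins are the secreted signals by which a growing tissue instructs its blood and lymphatic vessels, and 10 genes of this system were described here: the ligand genes Vegfa, Vegfb, Vegfc, Figf, Pgf and Angpt1 and the receptor genes Flt1, Kdr, Flt4 and Tek. The members were taken by gene symbol, and all 10 were found among the 22054 genes listed in both libraries. Figf is the older symbol of the gene for VEGF-D. The libraries came from Osr2-/- lower molars (Osr2 homozygous mutants, 1 library) and Osr2+/- lower molars (Osr2 heterozygous controls, 1 library), both from mouse embryos of a mixed background at embryonic day 14.5. Molar mesenchyme was cut from frozen sections by laser capture, captured tissue from 3 mutant and control pairs went into the pools, and cDNA was amplified with a kit for small RNA amounts. The labels conflict on the control: its sample title, its genotype entry and the design text give Osr2+/-, while the series title and the name of the control's file call it wild type. The genotype of the sample labels is used here, and the data do not settle whether each fold compares the mutant with heterozygous or with wild-type tissue. The sources used here do not say which part of the gene the allele lacks. With 1 library per genotype there is no replicate error, and no p-value is given.

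VEGF-A signals mainly through KDR (VEGFR-2) on endothelial cells, while FLT1 (VEGFR-1) binds VEGF-A, VEGF-B and placental growth factor and restrains VEGF-A in the embryo. VEGF-C and VEGF-D act through FLT4 (VEGFR-3), the receptor of lymphatic and sprouting vessels. Angiopoietin-1, from mesenchymal and perivascular cells, activates TEK (TIE2) and steadies vessels, and angiopoietin-2 can counter it. In the tooth germ, capillaries grow in the mesenchyme around and inside the dental papilla, which Osr2, a zinc-finger transcription factor gene, helps to pattern.

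Levels are RPKM, that is mapped reads scaled for transcript length and library depth, summed over a gene's transcript rows. The mutant library was 6.38 times as deep as the control, at a rough estimate of 34.3 M against 5.38 M mapped reads. Each fold, mutant over control RPKM, is printed with a 95% Clopper-Pearson interval made from estimated read numbers. Such an interval compares the reads of these libraries and covers counting error only. Osr2 itself was at 9.16 RPKM in the mutant and 38.7 RPKM in the control, 4.23-fold lower in the mutant (3.69 to 4.84). The dental mesenchyme genes Msx1 and Prrx1 were well expressed in both, at 36.8 and 122 RPKM in the mutant and 40.0 and 151 RPKM in the control. The mesenchyme markers as a list summed to a lower level in the mutant, as given beside Angpt1. The pools differed in sex-linked genes, with Xist at 29.95 RPKM in the mutant and 5.21 RPKM in the control and 4 Y-linked genes at or near 0 in the mutant only. File names give a different lane for each library. Neither lane nor the sex-linked difference between the pools can therefore be told apart from genotype.

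Of the 10 members, Figf was higher in the mutant library and Angpt1 lower, and the other 8 had counting intervals that spanned 1. All 10 passed the filter of at least 1 RPKM in at least 1 library, through either library alone. On the log2(RPKM + 1) scale, 1 of 10 was at least 2-fold higher, against 0.89% of the 9779 genes tested, and 0 of 10 at least 2-fold lower, against 0.798%. An interval lay above 1 for 1 member (7.87% of all genes tested) and below 1 for 1 member (15.9%), so the count on the lower side was near the background. The median log2 ratio of the 10 was -0.11, beside -0.05 for all genes tested.

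**Figure D1:**
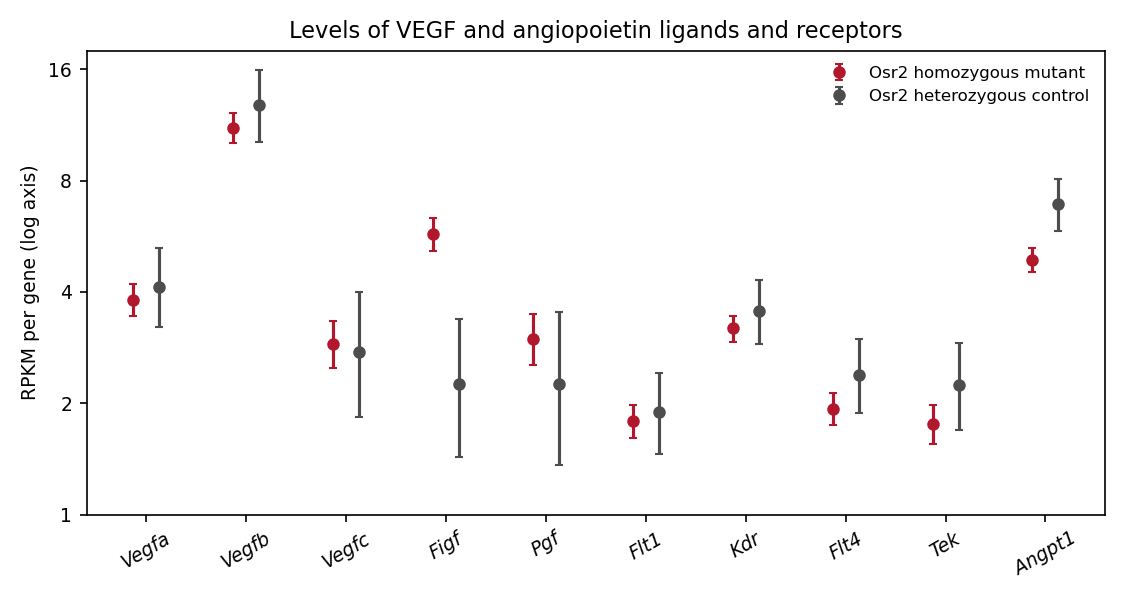
RPKM of each gene in the Osr2 mutant library (red, left of each pair) and the control library (grey), on a log axis, with 95% Poisson counting intervals. Intervals of the paired points are apart for Figf, at 5.72 RPKM in the mutant and 2.25 RPKM in the control, and for Angpt1, at 4.88 RPKM in the mutant and 6.91 RPKM in the control.

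Vegfa and Vegfb are spliced into forms that differ in how tightly the protein binds to the matrix, and the segments that separate those forms are printed because the form-level values below rest on them. The skipped stretch is in capitals, between 12 exonic bases on each side in lower case, 5′ to 3′ on the coding strand, from the GENCODE M21 transcripts (GRCm38) matched to the listed accessions. In Vegfa, the middle and long forms hold a coding exon of 132 bases at chr17:46020991-46021122 (minus strand), and the long form also holds a coding exon of 72 bases at chr17:46022277-46022348. In Vegfb, the long form holds 101 further coding bases at chr19:6985496-6985596 (minus strand), which extend an exon.
Vegfa exon of the middle form: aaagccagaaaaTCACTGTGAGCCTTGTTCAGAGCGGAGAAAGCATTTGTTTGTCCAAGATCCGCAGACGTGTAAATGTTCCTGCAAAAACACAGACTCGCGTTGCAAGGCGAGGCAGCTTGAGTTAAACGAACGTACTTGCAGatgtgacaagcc
Vegfa exon of the long form: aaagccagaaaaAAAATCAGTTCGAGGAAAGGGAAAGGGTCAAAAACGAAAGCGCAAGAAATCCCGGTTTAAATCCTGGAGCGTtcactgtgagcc
Vegfb segment of the long form: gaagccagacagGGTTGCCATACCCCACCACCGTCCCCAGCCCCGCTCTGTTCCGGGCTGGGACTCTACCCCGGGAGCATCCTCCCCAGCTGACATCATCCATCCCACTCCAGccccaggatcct

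Vegfa, the main growth factor for blood vessels, occupies positions 46153943 to 46169326 of chromosome 17 (mm9, as for all gene loci here) and was summed over 6 transcript rows. Its level was 3.80 RPKM in the mutant library and 4.14 RPKM in the control, a fold of 0.92 (0.72 to 1.23). The libraries did not differ beyond counting error for the gene as a whole. The 6 rows form 3 pairs with the same splicing and different starts, the upstream-start rows being 3326, 3458 and 3530 bases long. The short form, which lacks both segments and diffuses freely, was listed at 1.60 RPKM in the mutant and 3.09 RPKM in the control, which is 42.1% and 74.6% of the gene's sum. The middle form, a heparin-binding form, was listed at 1.57 RPKM in the mutant and 1.05 RPKM in the control. The long form, held most tightly by the matrix, was at 0.626 RPKM in the mutant and essentially 0 in the control.

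These form-level values rest on few reads. At the gene's mean coverage, the exon of 132 bases would collect about 17.2 reads in the mutant and 2.94 in the control, and the exon of 72 bases about 9.38 reads in the mutant and 1.60 in the control. An absence of the long form from the control was therefore not detectable at this depth. The rows with the nearer start summed to 1.92 RPKM in the mutant and 2.19 RPKM in the control, and the rows with the upstream start to 1.88 RPKM in the mutant and 1.95 RPKM in the control, so the 2 starts had similar sums in each library. Single rows were less even. The upstream short row was at 1.18e-08 RPKM in the mutant and 1.94 in the control, the nearer-start short row at 1.60 and 1.15. The middle rows were at 1.48 and 0.0152 (upstream) and 0.0989 and 1.04 (nearer). Both forms thus went in opposite directions at the 2 starts.

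Vegfb, whose protein binds FLT1, occupies 7056962 to 7062141 of chromosome 19 and was the most abundant member in both libraries. It was at 11.1 RPKM in the mutant and 12.8 RPKM in the control, a fold of 0.87 (0.71 to 1.16). Its short row of 1181 bases, for the heparin-binding form, was at 6.52 RPKM in the mutant and 12.8 RPKM in the control. Its long row of 1282 bases, for the more soluble form, was at 4.59 RPKM in the mutant, or 41.3% of the gene's sum, and near 0 in the control. The segment of 101 bases would collect about 38.5 reads in the mutant and 6.95 in the control at the gene's coverage. No count on the segment itself was available. If it was 0 in the control, the share of the long form there could still be up to 43.2%. That bound is close to the mutant share and depends on the approximate read estimate, so whether the 2 shares differ was not settled.

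**Figure D2:**
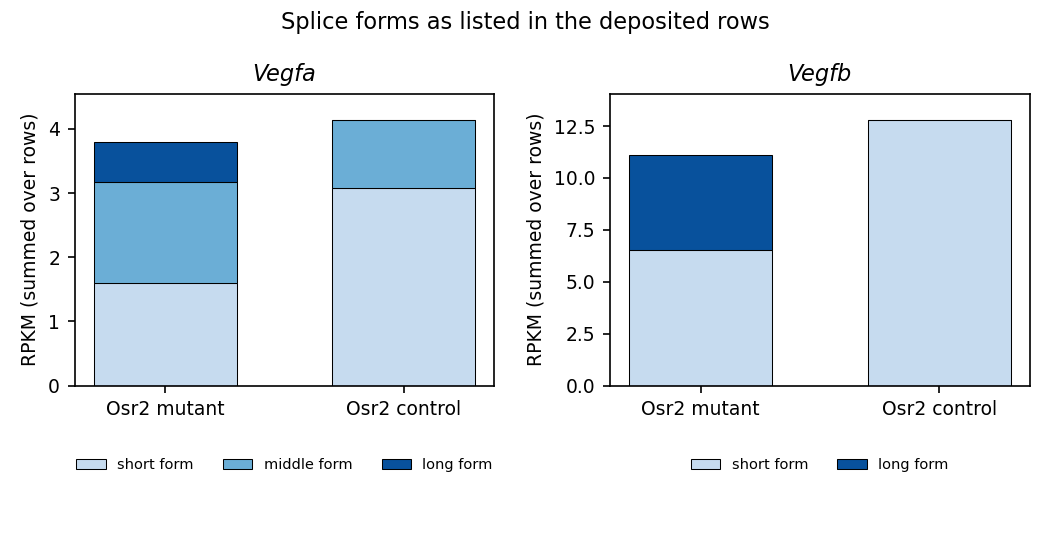
RPKM of Vegfa (left panel) and Vegfb (right panel) stacked by splice form, summed over deposited rows, for the Osr2 mutant library and then the control. The bar heights are close within each gene, at 3.80 and 4.14 RPKM for Vegfa and 11.1 and 12.8 RPKM for Vegfb in mutant and control, while the long forms are listed in the mutant bar alone.

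Figf, which encodes VEGF-D, a ligand of FLT4 that the cell secretes as a precursor and trims to its active core, was the member with the largest difference. It was at 5.72 RPKM in the mutant library (5.15 to 6.34, about 368 reads) and at 2.25 RPKM in the control, on about 23 reads (1.43 to 3.38). The mutant level was 2.54-fold higher (1.65 to 4.01), a log2 ratio of 1.05. Only 0.777% of all genes tested had a log2 ratio as high. Figf is given as a single transcript row, from 160811480 to 160840579 on chromosome X, so any splice forms are not separated, and no other listed gene overlaps the locus.

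Because Figf is X-linked and the pools differed in Xist and Y-linked genes, the chromosome is set beside it. The other 367 genes tested on chromosome X had a median log2 ratio of -0.10. Of these, 2 had a ratio as high as that of Figf, and Xist itself was among the 2. All 4 tested genes that start within 1 Mb of Figf had intervals that spanned 1, with folds of 0.79 to 1.03. Among other cell types, dental epithelium markers summed to 57.0 RPKM in the mutant and 41.3 RPKM in the control over 14 listed genes, with 1 (Shh) at 0 in the control and 6 of 11 tested with an interval above 1, against 7.87% of all genes tested. Osteogenic markers were also higher, with 6 of 8 tested having an interval above 1 and a summed level of 173 RPKM in the mutant and 131 RPKM in the control over 10 genes. Of those 6, Ibsp, Sp7 and Ifitm5 passed the filter of 1 RPKM through the mutant library alone. So did Krt18 and Grhl2 among the epithelial markers with an interval above 1. Both counts therefore hold genes that the filter kept only because of their mutant level. Of the osteogenic genes, Spp1, Bglap and Ifitm5 were at 0 in the control. Spp1 and Bglap were below the filter in the mutant too, at 0.0992 and 0.147 RPKM on about 5 and 2 reads. Their 0 in the shallower control therefore does not set the libraries apart. Shh was also below the filter, at 0.175 RPKM in the mutant on about 16 reads. The largest ratios were those of Ibsp at 13.0 RPKM in the mutant and 0.459 RPKM in the control, Sp7 at 3.84 RPKM in the mutant and 0.607 RPKM in the control, Alpl at 6.51 RPKM in the mutant and 2.22 RPKM in the control, Ifitm5 at 1.12 RPKM in the mutant and the epithelial keratin gene Krt17 at 4.63 RPKM in the mutant and 1.48 RPKM in the control. Whether either cell population has a part in the level of Figf was not tested.

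The bases before the start of Figf are shown because it is the member past 2-fold. The 250 bases upstream of the RefSeq start (GRCm38.p6, chrX:164373272-164373521, plus strand, entered there as Vegfd) run 5′ to 3′ as follows, with the only match to TATAAA in capitals.
Figf upstream sequence: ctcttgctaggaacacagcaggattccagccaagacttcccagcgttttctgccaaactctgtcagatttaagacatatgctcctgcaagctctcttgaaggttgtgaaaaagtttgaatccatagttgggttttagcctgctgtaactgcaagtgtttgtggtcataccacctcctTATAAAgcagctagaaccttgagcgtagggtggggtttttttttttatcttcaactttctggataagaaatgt
The match begins 73 bases before the start, and 12.4% of 32851 upstream windows of the same length hold TATAAA on either strand. The Flt1 window also holds it, 31 bases before the start. The sequence is 42.4% G and C, lower than in the other 8 members with an entry, which ran up to 76.4% for Vegfb, and 17.9% of all windows were as low. Neither the hypoxia response core (ACGTG or GCGTG, in 38.6% of windows) nor the AP-1 site (TGANTCA, in 6.75%) nor the ETS core (CCGGAA, in 12.03%) was found in the Figf window on either strand. Of the other members, Vegfb, Pgf, Flt1 and Kdr held the hypoxia core in a window, as did the second of the 2 Vegfa windows, and only Kdr held the ETS core.

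Vegfc, the other ligand of FLT4 and the main growth factor for lymphatic vessels, was at nearly the same level in both libraries. The gene spans 55162886 to 55271808 of chromosome 8. It was at 2.90 RPKM in the mutant and 2.76 RPKM in the control, a fold of 1.05 (0.70 to 1.62). Figf made up 66.4% of the summed RPKM of Vegfc and Figf in the mutant and 45.0% in the control. The sum of both ligand genes was 8.62 RPKM in the mutant and 5.01 RPKM in the control, so the higher sum came from Figf.

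Pgf, the gene for placental growth factor, a ligand of FLT1 alone among the VEGF receptors, was at 2.99 RPKM in the mutant and 2.26 RPKM in the control. Its fold of 1.32 had a wide interval (0.82 to 2.26), because the control level rests on about 19 reads. The gene spans 86507591 to 86518235 of chromosome 12. Summed with Vegfa and Vegfb, the ligand genes of FLT1 came to 17.9 RPKM in the mutant and 19.2 RPKM in the control. All 5 VEGF ligand genes together came to 26.5 RPKM in the mutant and 24.2 RPKM in the control.

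The receptor genes lay a little lower in the mutant library, each within counting error. Kdr, the principal signalling receptor of blood vessel endothelium, was at 3.19 RPKM in the mutant and 3.55 RPKM in the control, a fold of 0.90 (0.73 to 1.12). The gene spans 76329299 to 76374453 of chromosome 5. Flt1, at 148373772 to 148537564 of that chromosome, was at 1.79 RPKM in the mutant and 1.90 RPKM in the control, a fold of 0.94 (0.72 to 1.25). Flt1 also makes a soluble decoy receptor, and the deposited values give the gene as 1 transcript row, so the forms are not separated.

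Flt4, the receptor gene for VEGF-C and VEGF-D, was at 1.93 RPKM in the mutant and 2.39 RPKM in the control, a fold of 0.81 (0.63 to 1.05). The gene spans 49423181 to 49466241 of chromosome 11. Its level was thus not higher in the library where its ligand gene Figf was. Tek, the angiopoietin receptor gene at 94405991 to 94541630 of chromosome 4, was at 1.76 RPKM in the mutant and 2.25 RPKM in the control, a fold of 0.78 (0.59 to 1.06). All 4 receptor folds were below 1, and none of the 4 intervals excluded it.

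Endothelial markers had a median close to that of the receptor genes. Of 24 marker genes listed, 18 were tested, 16 of those had a log2 ratio below 0, and an interval lay below 1 for 4 and above 1 for 0. Over all 9779 genes tested, 5623 had a log2 ratio below 0 and 15.9% an interval below 1, so the count of intervals was near the background. The share with a log2 ratio below 0, 16 of 18, was larger than over all genes tested. Of the 4 with an interval below 1, Tie1 passed the filter through the control library alone. The median fold of the 18 was 0.89 and that of the 4 receptor genes 0.85. Among them, Emcn, an endothelial sialomucin gene, was at 2.54 RPKM in the mutant and 5.53 RPKM in the control, 2.17-fold lower (1.45 to 3.01). Cd34 was at 7.70 RPKM in the mutant and 11.9 RPKM in the control, while the endothelial cadherin gene Cdh5 was at 9.62 RPKM in the mutant and 10.5 RPKM in the control, a fold of 0.915 (0.795 to 1.06). Ramp2 and Sox18, an adrenomedullin co-receptor gene and a vascular transcription factor gene, had folds of 0.66 (0.41 to 1.08) and 0.75 (0.57 to 0.99). Of the 18, 6 had a fold below that of Tek, 6 a fold above that of Flt1, and 6 lay between. None of the 24 was at 0 in either library, and their summed level was 60.7 RPKM in the mutant and 75.5 RPKM in the control.

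Set against that sum, the 4 receptor genes came to 14.3% in the mutant and 13.3% in the control. Kdr alone came to 5.25% in the mutant and 4.70% in the control. The markers in the sum did not move together. Emcn and Cd34 had folds of 0.46 and 0.65, while Cd93 and Eng had folds of 0.99 and 1.01. The sum is therefore only a rough measure of endothelium. In such bulk tissue, fewer endothelial cells and less RNA per endothelial cell cannot be told apart. Erythroid markers, which circulate inside the vessels, summed to 875 RPKM in the mutant and 1102 RPKM in the control.

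**Figure D3:**
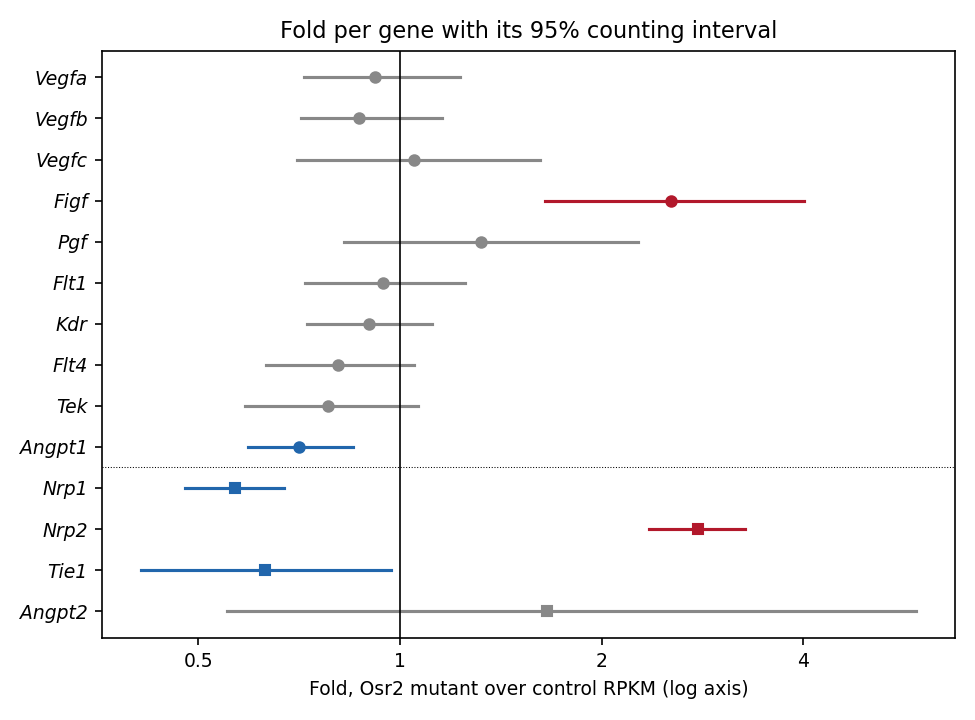
Fold of each gene, mutant over control RPKM on a log axis, with its 95% counting interval, for the 10 ligand and receptor genes (circles) and 4 partner genes (squares). Red marks an interval above 1, blue one below 1 and grey one that spans 1, so that Figf and Nrp2 stand above 1 and Angpt1, Nrp1 and Tie1 below.

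Angpt1, the gene for the angiopoietin that activates TEK, was lower in the mutant library. It was at 4.88 RPKM in the mutant (4.52 to 5.26, about 682 reads) and 6.91 RPKM in the control, on about 151 reads (5.85 to 8.10). The mutant level was 1.42-fold lower (1.18 to 1.69), a log2 ratio of -0.43, and 8.38% of all genes tested had a ratio as low. Among the members it followed Vegfb and Figf in the mutant, with an interval overlapping that of Figf, and followed Vegfb alone in the control, where its interval met no neighbour's. Against the summed endothelial markers it came to 8.04% in the mutant and 9.14% in the control. Most markers of the captured mesenchyme were also lower in the mutant. Of 14 tested, 9 had a log2 ratio below 0 and 5 above, beside 5623 below 0 among all 9779 genes tested. An interval lay below 1 for 8 and above 1 for 0, against 15.9% and 7.87% of all genes tested. These shares are not a like background, because intervals are narrower in genes with many reads. All the markers but Prrx2 exceeded the median of 57 control reads of genes tested, with Pax9 at about 853 and Prrx1 at about 3894. Pax9, Lhx8, Barx1 and Pdgfra had folds of 0.64 (0.59 to 0.69), 0.65 (0.58 to 0.74), 0.69 (0.60 to 0.78) and 0.73 (0.68 to 0.79). The 5 above 0 were Prrx2, at a fold of 1.34 (0.96 to 1.98), Dlx2, Bmp4, Col1a1 and Twist1, each with an interval that spanned 1. The list summed to 453 RPKM in the mutant and 538 RPKM in the control, with no marker at 0, and its part in the level of Angpt1 was not tested. Relative to Tek, Angpt1 stood at 2.78 in the mutant and 3.08 in the control.

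Angpt1 spans 42256271 to 42508341 of chromosome 15, on the same chromosome as Osr2 and 7.03 Mb from it. Homozygous mutants can share a stretch of chromosome around the targeted allele, so the surrounding genes are given. Of 50 other genes tested within 10 Mb of Osr2, an interval lay above 1 for 8 and below 1 for 10. Over all genes tested, the shares were 7.87% above 1 and 15.9% below. Their median log2 ratio was 0.00. Among these 50, 5 had a log2 ratio as low as that of Angpt1. The 21 genes tested between Osr2 and Angpt1 had a median log2 ratio of 0.11, with 4 intervals above 1 and 2 below. Whether linked sequence has a part in the level of Angpt1 was not tested.

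**Figure D4:**
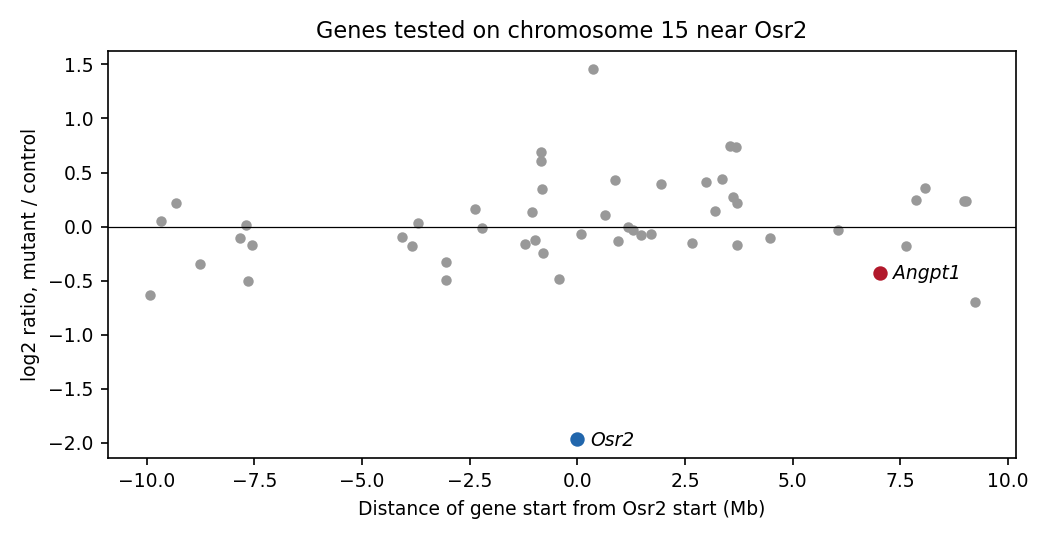
Log2 ratio, (mutant RPKM + 1) over (control RPKM + 1), of each gene tested within 10 Mb of Osr2 on chromosome 15, by the distance of its start from that of Osr2. Angpt1 (red), 7.03 Mb away at -0.43, lies among genes with ratios on both sides of 0, and Osr2 (blue) lies lowest at -1.97.

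In both libraries Vegfb was highest, and the receptor genes Flt1 and Tek were among the lowest. In the mutant the order by RPKM was Vegfb, Figf, Angpt1, Vegfa, Kdr, Pgf, Vegfc, Flt4, Flt1 and Tek. Neighbours in it with counting intervals that did not overlap were Vegfb and Figf, Angpt1 and Vegfa, and Vegfc and Flt4. In the control the order was Vegfb, Angpt1, Vegfa, Kdr, Vegfc, Flt4, Pgf, Figf, Tek and Flt1, and past Angpt1 every neighbour overlapped the next. Figf was thus second in the mutant and eighth in the control.

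The co-receptor genes for VEGF went in opposite directions. Nrp1, the neuropilin that pairs with KDR for VEGF-A and also binds class 3 semaphorins, was at 3.15 RPKM in the mutant and 5.55 RPKM in the control. It was 1.76-fold lower in the mutant (1.49 to 2.09). Nrp2, the neuropilin that pairs with FLT4 for VEGF-C and VEGF-D, was at 14.2 RPKM in the mutant and 5.08 RPKM in the control, 2.79-fold higher (2.35 to 3.27). The 2 Nrp2 rows with the nearer end, at 62843665 on chromosome 1, summed to 7.40 RPKM in the mutant and 2.55 RPKM in the control, and the 4 rows ending at 62865266 to 6.76 RPKM in the mutant and 2.53 RPKM in the control. Both sets of Nrp2 rows were thus higher in the mutant, and Nrp2 over Nrp1 stood at 4.50 in the mutant and 0.92 in the control. As background, neuropilins are made by mesenchyme and nerve as well as by endothelium.

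The partner genes of the TIE system were low. Tie1, the orphan receptor gene that modulates TEK, was at 0.861 RPKM in the mutant and 1.37 RPKM in the control, 1.59-fold lower (1.03 to 2.43). The upper bound of its fold passed 1 under 4 alternatives, at 1.001 on the TPM scale, 1.0003 after centring, 1.12 with a 99% interval and 1.23 with 100 bases per read. Angpt2, the gene for the antagonist of angiopoietin-1, was at 0.464 RPKM in the mutant and 0.280 RPKM in the control on about 4 control reads, a fold of 1.66 (0.55 to 5.89). Angpt1 over Angpt2 stood at 10.5 in the mutant and 24.7 in the control. Angpt4 was at 0.0361 RPKM in the mutant and listed at 0 in the control. Ptprb, the phosphatase gene that restrains TEK, was at 0.502 RPKM in the mutant and 0.584 RPKM in the control (0.61 to 1.27). Of these 6 partner genes, neuropilins included, 3 were tested, with 1 interval above 1 and 2 below. Tie1 passed the filter through the control library alone. All genes tested had 7.87% above 1 and 15.9% below.

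Genes that process VEGF-C and VEGF-D had folds on both sides of 1. The filter kept 4 of these 6, of which 1 had an interval above 1 and 1 below, beside 7.87% and 15.9% of all genes tested. Their median log2 ratio was -0.11. Pcsk5, a proprotein convertase gene, was at 2.37 RPKM in the mutant and 1.70 RPKM in the control, 1.39-fold higher (1.05 to 1.88). Adamts3, which encodes the protease that activates VEGF-C, was at 1.09 RPKM in the mutant and 1.499 RPKM in the control, 1.38-fold lower (1.03 to 1.83). Its cofactor gene Ccbe1 was at 0.503 RPKM in the mutant and 0.578 RPKM in the control. The related protease gene Adamts14 was at 0.287 RPKM in the mutant and 0.101 RPKM in the control on about 3 control reads, a ratio of 2.85 (0.86 to 13.4). The convertase genes Furin and Pcsk7 had folds of 0.86 (0.69 to 1.07) and 0.95 (0.63 to 1.54).

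Of the genes that endothelium turns on in response to VEGF, most tested had an interval that spanned 1. The filter kept 5 of 10, of which 1 had an interval above 1 and 1 below, near the 7.87% and 15.9% of all genes tested. Their median log2 ratio was -0.13. Rcan1, the calcineurin regulator gene, was at 3.96 RPKM in the mutant and 2.71 RPKM in the control, 1.46-fold higher (1.01 to 2.12). Aplnr, the apelin receptor gene, was at 10.03 RPKM in the mutant and 11.7 RPKM in the control, 1.17-fold lower (1.01 to 1.35), and its ligand gene Apln at 1.44 RPKM in the mutant and 1.83 RPKM in the control, a fold of 0.79 (0.53 to 1.20). The tip cell genes Dll4 and Esm1 were under 1 RPKM in both libraries, at 0.407 and 0.245 RPKM in the mutant and 0.675 and 0.439 RPKM in the control. Also low were Apold1, Vash1 and Hlx, at 0.375, 0.580 and 0.578 RPKM in the mutant and 0.591, 0.468 and 0.157 RPKM in the control. Nr4a1 had a fold of 1.27 (0.65 to 2.55) and Adamts1 of 0.90 (0.76 to 1.07).

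Among intracellular mediators of VEGF receptors, 11 of 16 were tested, and an interval lay below 1 for 4 of them and above 1 for 0, beside 15.9% and 7.87% of all genes tested. Their median log2 ratio was -0.10. Prkca, a protein kinase C gene downstream of KDR, was at 1.58 RPKM in the mutant and 2.75 RPKM in the control, 1.74-fold lower (1.41 to 2.12). Map2k1, Plcg1 and Akt1 had folds of 0.72 (0.55 to 0.96), 0.78 (0.64 to 0.95) and 0.85 (0.75 to 1.004). These genes are used by most cell types.

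Secreted inhibitors and heparan-binding partners went both ways. Of the 10 tested among 11 listed, 4 intervals were above 1 and 3 below, beside 7.87% and 15.9% of all genes tested. Their median log2 ratio was 0.08. The thrombospondin gene Thbs2, whose protein inhibits angiogenesis, was at 7.53 RPKM in the mutant and 4.92 RPKM in the control, 1.53-fold higher (1.30 to 1.81). Sema3e, whose product repels endothelial cells through plexin D1, was 1.62-fold higher in the mutant (1.19 to 2.24), at 2.02 RPKM in the mutant and 1.24 RPKM in the control. Sema3f, a ligand of the NRP2 receptor, was at 2.26 RPKM in the mutant and 3.58 RPKM in the control, 1.59-fold lower (1.18 to 2.08). Thbs1 was 1.36-fold higher (1.09 to 1.70).

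Oxygen-sensing and hypoxia-response genes, which include the regulators of Vegfa, were close in both libraries. The filter kept 16 of 20, of which 1 had an interval above 1 and 1 below, beside 7.87% and 15.9% of all genes tested. Their median log2 ratio of -0.11 stood beside -0.05 for all genes tested. Hif1a, the gene for the hypoxia-inducible subunit, was at 13.4 RPKM in the mutant and 13.9 RPKM in the control, a fold of 0.96 (0.86 to 1.08). Ndrg1 was at 1.37 RPKM in the mutant and 0.606 RPKM in the control on about 9 control reads, 2.25-fold higher (1.20 to 5.25) as a plain ratio and below 2-fold on the log2(RPKM + 1) scale. It passed the filter through the mutant library alone. Slc2a1, the glucose transporter gene, was 1.22-fold lower (1.04 to 1.42). Vhl and Higd1a had folds of 0.72 (0.52 to 1.02) and 0.69 (0.44 to 1.13).

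Lymphatic and pericyte markers are given for the other vessel-associated cells. As background for both lists, 15.9% of all genes tested had an interval below 1 and 7.87% above. Of 7 lymphatic markers, 3 passed the filter, with 1 interval below 1 and 0 above. Sox18, which blood vessels also express, had a fold of 0.75 (0.57 to 0.99), Pdpn of 0.61 (0.39 to 1.01) and Mmrn1 of 1.104 (0.73 to 1.73). Among those under the filter, Prox1, the lymphatic identity gene, was at 0.588 RPKM in the mutant and 0.470 RPKM in the control, and Lyve1 at 0.304 RPKM in the mutant and 0.351 RPKM in the control. Ccl21a was listed at 0 in both libraries. The 7 lymphatic markers summed to 9.22 RPKM in the mutant and 11.8 RPKM in the control. Of 10 pericyte and smooth muscle markers, 5 were tested, with 1 interval above 1 and 2 below. The pericyte gene Rgs5 was at 5.15 RPKM in the mutant and 8.67 RPKM in the control, 1.68-fold lower (1.30 to 2.14). The smooth muscle actin gene Acta2 had a fold of 0.58 (0.37 to 0.91), while Pdgfrb was at 11.0 RPKM in the mutant and 9.12 RPKM in the control, 1.21-fold higher (1.06 to 1.38). Macrophage markers summed to 19.1 RPKM in the mutant and 24.3 RPKM in the control.

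**Figure D5:**
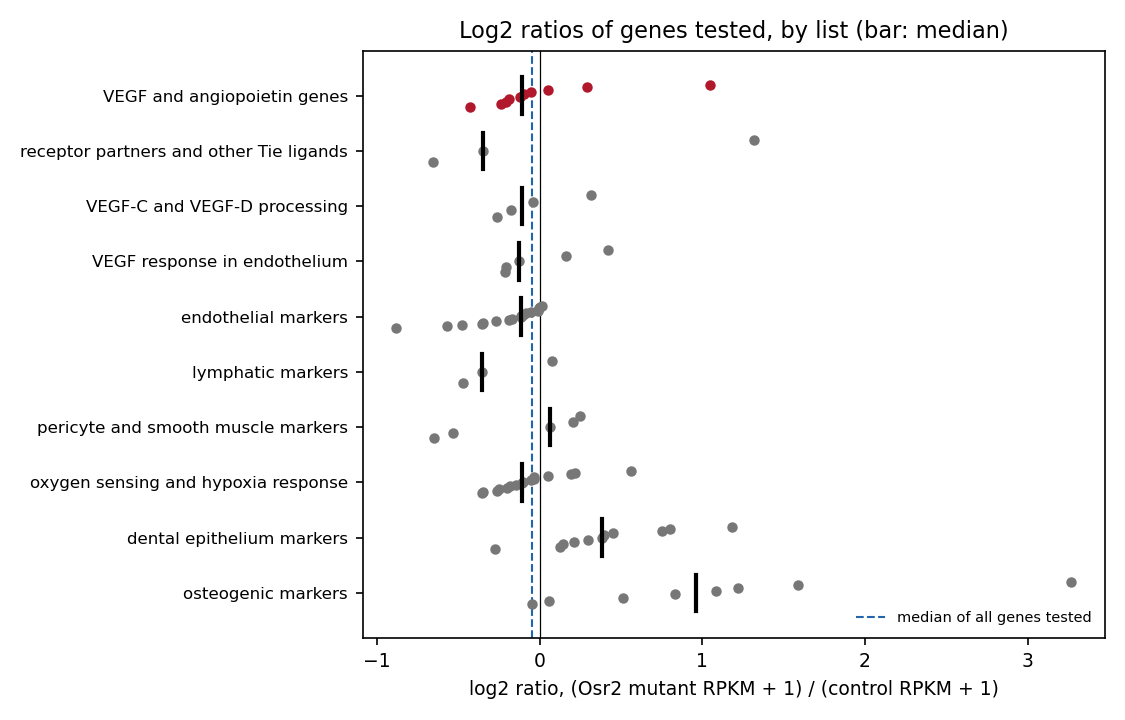
Log2 ratio, (mutant RPKM + 1) over (control RPKM + 1), of each gene tested in 10 lists, with the list's median as a black bar and the median of all genes tested, -0.05, as a dashed line. The 10 ligand and receptor genes (red) have a median of -0.11, close to that of the endothelial markers at -0.12, with Figf alone past 1.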

How the data were processed

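RNA-seq of laser-captured molar mesenchyme was analysed, 1 library per genotype. The submitters' processing notes name build mm9, Bowtie 0.12.7 and TopHat 1.4.1. RPKM entered as deposited. The deposited coverage, a signal not scaled for depth, was 1.52 times RPKM in the mutant and 0.238 times RPKM in the control. Reads were estimated as coverage times length over 44.3 bases, the mean over both libraries of the median of products between 20 and 66 bases. Of low values, 24.9% in the mutant and 26.3% in the control lay within 0.1 of a whole read. Evenly spread values would give only a little less, and the window itself largely sets the step. The step, the depths in mapped reads and every interval and read number are therefore uncertain in scale. The ratio of the depths does not use the step. No count model was fitted. The 54 rows marked FAIL or HIDATA, none of a member, were left out, and rows were summed per symbol. For every gene with several rows, such as Vegfa, Vegfb, Nrp2, Emcn, Cd34 and Rcan1, the interval is that of reads and can differ from the RPKM fold beside it. Tested genes had at least 1 RPKM in at least 1 library; log2 ratios used a pseudocount of 1 RPKM, which understates differences of low genes. The cDNA was amplified and carries no molecular identifiers, so reads do not count separate molecules. The sources used here do not say whether strand was used. The members and lists were chosen with earlier results of these data known. Named were all members, Osr2, all genes of the partner, processing and response lists, up to 4 further genes per list with the largest log2 ratios, and others chosen after their values were seen. The interval calculation was tested on simulated counts, which did not test the read step. Python 3.11.15, pandas 2.3.3 and scipy 1.17.1 were used.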

Additional observations from a re-analysis of the deposited data

How the results depend on the processing

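Alternatives were a pseudocount of 0.1 RPKM, no filter, a filter of 5 RPKM, the TPM scale, centring on the median of all genes, the highest transcript row per gene, all rows kept, 100 bases per read and a 99% interval. Figf stayed the 1 member above 1 and past 2-fold under each alternative that applied, with a log2 ratio up to 1.35 on the TPM scale, and Angpt1 stayed below 1, with ratios from -0.49 to -0.38. With the highest row per gene, 2 members had an interval below 1, because Vegfb then kept only its short row (log2 ratio -0.87 against -0.19), and Vegfa was at 0.27 against -0.10. Nrp2 was then at 1.06 against 1.32. Over all genes, 165 of 9779 tested were 2-fold apart, against 441 of 9779 with the pseudocount of 0.1. The highest row gave 421 of 9691 and the filter of 5 RPKM 50 of 3909. The TPM scale gave 1585 of 14051. TPM values were larger than RPKM, so the pseudocount and filter of 1 weighed less there and more low genes entered. The share that was higher in the mutant was 35.9% with the highest row, against 52.7% as reported. The median of the lymphatic list was -0.35 on 3 genes and 0.02 on the TPM scale on 6. No paired analysis was possible because each genotype had 1 library, and no library could be left out. Depth limits Pgf, Vegfc and Figf, with 19, 28 and 23 control reads.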
